A study of Caenorhabditis elegans with 4 samples.

Results

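Chromosome III carried 928 of the 4794 LIN-35::GFP binding sites that the series reports for nuclear DNA of fed L1 larvae, the first of the larval stages. They were taken as every peak of the combined peak list placed on III, so that no score or place selected single sites. Chromosome III itself was chosen with earlier results of these data known. The larvae were hermaphrodites of strain YL409, grown at 20 °C. The strain carries *unc-119(ed3)*, a mutation on chromosome III, and the transgene vrIs60, in which the *lin-35* promoter drives LIN-35 fused to GFP and FLAG ahead of the 3′ UTR of *dpl-1*, with *unc-119(+)* as rescue. All samples share this genotype. The labels give no outcross and do not say where the transgene is inserted, and the genotype lists no mutation of the endogenous *lin-35* gene. The 4 samples are 2 anti-GFP ChIP samples and 2 inputs from the same extracts, and nothing states whether the replicates came from separate cultures.

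LIN-35 is the worm protein of the retinoblastoma family. It works as a subunit of the DREAM complex, in which the E2F and DP proteins EFL-1 and DPL-1 and the DNA-binding subunit LIN-54 contact promoters, and it is known for repressing cell cycle genes and, in somatic cells, germline genes. Worm autosomes have a gene-rich central part with little recombination and arms with more recombination and more repeats. The peaks are given in WormBase WS220 coordinates. Genes and sequences at the peaks were not analysed here, so the sites are described by position, by place in the list and by their partners in the single replicates. A place is a peak's order in a list by score, with tied scores ordered by the authors' peak number, and place 1 is the best. A peak number of a replicate is the authors' own order, and a low one is read here as a strong peak. Below the highest score, numbers and scores do not always run the same way. In the combined list, number 4400 on III has score 3.46977 and number 4382 has 3.468.

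Sites on III made up 19.4% of the combined list (Wilson 95% interval 18.3 to 20.5%, counting error only), while III spans 13.7% of the nuclear extent covered by the peak lists. Among an equal number of top peaks, III held 923 (19.3%) in replicate 1 and 934 (19.5%) in replicate 2. Both replicates thus gave a share close to that of the combined list. In density, III had 67.3 sites per Mb over an extent of 13.8 Mb. The other autosomes together had 46.6 per Mb, and the ratio of III to them was 1.45. It was 1.42 with the top peaks of replicate 1 and 1.46 with those of replicate 2. Chromosome I stood nearest to III with 63.2 sites per Mb, a ratio of 1.07, whereas V, at 33.1 per Mb, was the farthest with a ratio of 2.04. Without V the ratio of III to the remaining autosomes was 1.28, and without I it was 1.61. No test was made between chromosomes, because the sites of a chromosome come from the same libraries and are not replicates of a condition.

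The greater density of III was larger in the head of the lists than over the whole replicate lists. Over every deposited nuclear peak, weak ones included, III had 1.18 times the density of the other autosomes in replicate 1 (4203 peaks on III) and 1.24 times in replicate 2 (4751 peaks). Among the best 500 sites the ratio was 1.70 in the combined list, 1.67 in replicate 1 and 1.73 in replicate 2. These 3 ratios rest on 125, 123 and 127 sites on III.

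The strongest site on III, at 3867377 to 3867708 in the left part of the chromosome, took place 2 of the whole list. Replicate 1 numbered it 2 and replicate 2 numbered it 1. Another, at 10758977 to 10759340 in the right part, took place 5, with numbers 4 and 6. It was also the widest site of III, at 364 bp. Place 6, at 7854461 to 7854760 near the middle, had number 8 in both replicates. Places 7, 8, 10 and 14 started at 12904928, 11007618, 11719362 and 2151524. Their numbers lay between 6 and 13 in replicate 1 and between 7 and 25 in replicate 2. These strongest sites were therefore spread from the left arm to the right end and were not gathered in a single stretch.

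The next sites kept this scatter. Place 22 was at 8741423 to 8741716, with numbers 36 and 12 in replicates 1 and 2. Place 24 was at 4150859 to 4151178, with numbers 18 and 28. Place 26, at 1859583 to 1859866, had numbers 21 and 32. All 3 lay within the first 36 peaks of either replicate. Place 28 was at 7498406 to 7498727, with numbers 27 and 30, and place 37 at 4962940 to 4963223, with numbers 41 and 38. Place 39, at 9631267 to 9631550, had numbers 45 and 43. Place 43 was at 4757006 to 4757302, with numbers 50 and 33. Place 46, at 12429655 to 12429945, had number 78 in replicate 1 and 26 in replicate 2, a factor of 3 as at place 22. At the other end of the list stood place 4760, the last on III, at 1419805 to 1420128. It had number 3360 in replicate 2 and no partner in replicate 1. Places 4754 and 4750, at 1343071 to 1343394 and 11463683 to 11464006, had partners in both, with numbers 3289 and 6451 for the former and 4835 and 5207 for the latter.

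**Figure D1:**
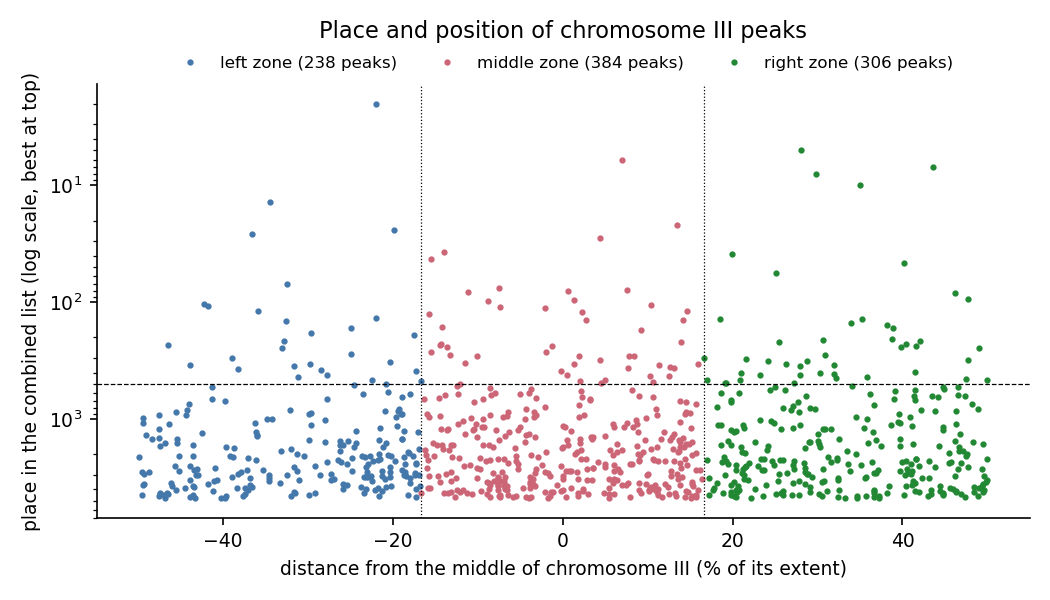
Place of each of the 928 sites on III in the combined list (y axis, log scale, best at the top) against its distance from the middle of the chromosome (x axis, percent of the extent). Dotted lines bound the middle zone and the dashed line marks place 500; the 125 sites above it lie in all 3 zones, with 30 in the left, 49 in the middle and 46 in the right zone.

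Sites on III stood somewhat higher in the list than sites elsewhere. Of the 928, 125 were among the best 500 (13.5%, Wilson 95% interval 11.4 to 15.8%), against 10.4% of all nuclear sites. On the other autosomes this share ran from 11.0% on I to 12.4% on II, so that the interval of III reaches below the value of II. On X it was 1.20%. The median place on III was 2177.5, between 2156 on I and 2286 on II, and over all nuclear sites 2397.5. By the medians, I and III lay together at the head.

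Down the combined list the share of sites on III went from 25.0% in places 1 to 500 (Wilson interval 21.4 to 29.0%) to 22.4% in places 501 to 1000. Over the next bins of 500 places it was 19.2%, 19.8% and 20.2%. It was 17.6%, 16.6% and 15.8% in the bins from place 2501 to 4000, 19.2% in places 4001 to 4500 and 16.7% in the last 294 places. All of these shares lay above the 13.7% of the extent, although the intervals of 3 bins included it: places 3001 to 3500 (13.6 to 20.1%), places 3501 to 4000 (12.9 to 19.3%) and the last 294 places (12.8 to 21.4%). In replicate 1 the first bin held 24.6% and in replicate 2 25.4%. These shares, and that of the extent, count X, which held 1.6% of the best 500 but 13.9% of the combined list. Among autosomal sites alone the share of III fell less steeply in the head. It was 25.4% of the best 500, 24.8% of the best 1000 and 23.5% of the best 2000. With X counted, III held 25.0%, 23.7% and 21.6% of these. At the very head the counts are small: of the best 15 places III took 7 in the combined list and in replicate 1 and 6 in replicate 2. Of the best 100, it took 25, 29 and 23 in these lists.

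**Figure D2:**
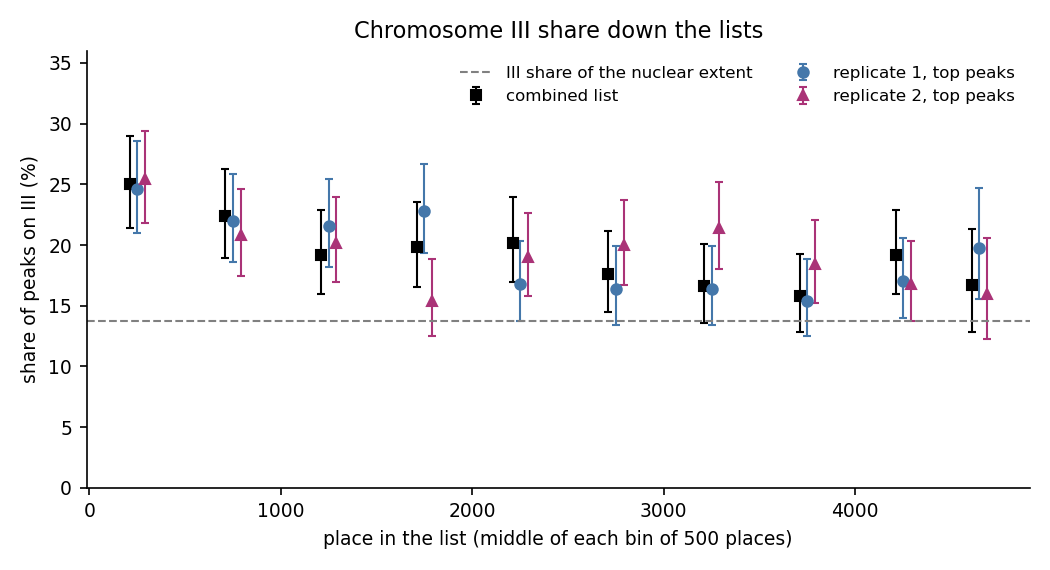
Share of peaks on III (y axis, percent) in successive bins of 500 places (x axis) in the combined list and in the top 4794 nuclear peaks of either replicate; bars are Wilson 95% intervals, and the last bin holds 294 places. The first bin is at 24.6 to 25.4% in all 3 lists, and the dashed line is the 13.7% of the nuclear extent that III spans.

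Along the chromosome the middle was the densest. For this comparison the extent of III was divided into 3 zones of equal length, 4.59 Mb each. The middle zone held 384 sites, or 83.6 per Mb, the left zone 238 (51.8 per Mb) and the right zone 306 (66.6 per Mb). The middle was 1.41 times as dense as the outer zones together. The other autosomes as a set gave 1.42, and singly they ran from 1.27 on IV to 1.64 on V. In the combined list III thus lay inside the range of the other autosomes in this respect. The ratio on III was 1.39 with the top peaks of replicate 1 and 1.31 with those of replicate 2. In the latter the outer zones held 564 sites against 544 in the combined list. The other autosomes ran from 1.23 on IV to 1.72 on V in replicate 1. In replicate 2 they ran from 1.34 on IV to 1.62 on V, so that III was the lowest there. Over every deposited peak III was the lowest autosome in both replicates, at 1.16 (others 1.19 to 1.31) and 1.21 (others 1.25 to 1.46). The right zone was denser than the left also in the top peaks of replicate 1 (66.6 against 52.0 per Mb) and of replicate 2 (69.2 against 53.6). Of the other autosomes, II had its denser outer zone on the right as well, with 54.4 against 32.0 per Mb. On I, IV and V the left was the denser.

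Among the best 500 sites the middle zone of III still had the larger density. It held 49 of 125 such sites, or 39.2% (Wilson 95% interval 31.1 to 48.0%), which gives 10.7 per Mb against 8.27 in the outer zones and a ratio of 1.29. This ratio was 1.24 in replicate 1 and 1.34 in replicate 2. On the other autosomes together the middle held 33.5% of the best 500 (28.9 to 38.5%), a ratio of 1.01. They were not alike: II had 0.86, IV had 0.89, I had 1.04 and V had 1.32. The intervals of III and of the other autosomes overlap, and V was as high as III, so that a higher central share of strong sites on III is not shown. Within III, sites in the middle, left and right zones had median places of 2074, 2233.5 and 2219. Both replicates held a partner for 96.9%, 94.5% and 95.8% of them.

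In whole windows of 1 Mb III carried 66.9 ± 18.7 sites (SD over 13 windows), from 37 to 101. The sparsest windows were those from 1 to 2 and from 2 to 3 Mb, with 40 and 37 sites in the combined list. The top peaks of replicate 1 gave 37 and 46 and those of replicate 2 gave 38 and 40, so that the order of this pair differed between the combined list and the replicates. The fullest was that from 8 to 9 Mb, with 101, 105 and 100. The next were 5 to 6 Mb with 92 sites and 4 to 5 Mb with 82. Dense windows were thus contiguous from 4 to 9 Mb, where each held at least 72 sites. The part beyond 13 Mb, 0.781 Mb long, held 58 sites, or 74.3 per Mb, which is above the 60 sites of either window before it. Window counts of the 2 replicates' top peaks went together on III (Pearson's r = 0.98, Spearman's rho = 0.99 over 13 windows). Windows of a chromosome share libraries and peak calls, so these are descriptions only.

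The number of sites in a window and the number of strong ones did not always go together. The window from 0 to 1 Mb held 52 sites but only 2 of the best 500 (3.85%, Wilson 95% interval 1.06 to 13.0%), and its best site, at 491155 to 491411, took place 231. The sparse window from 2 to 3 Mb held 10 of the best 500 among 37 sites (27.0%, 15.4 to 43.0%). These intervals do not overlap, but this pair was picked as the lowest and the highest of 13. The window from 5 to 6 Mb, with 92 sites, had 8 of the best 500, and that from 7 to 8 Mb, with 78 sites, had 14. Replicate 1 placed 2, 10, 9 and 12 of its own best 500 peaks in these 4 windows, and replicate 2 placed 2, 9, 9 and 13. In 10 of the 13 windows the best site was within the first 39 places. The exceptions were the first window and those from 5 to 6 and 6 to 7 Mb, whose best sites, at 5855799 to 5856089 and 6971907 to 6972171, took places 75 and 80. Beyond 13 Mb the best, at 13256415 to 13256682, took place 83.

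**Figure D3:**
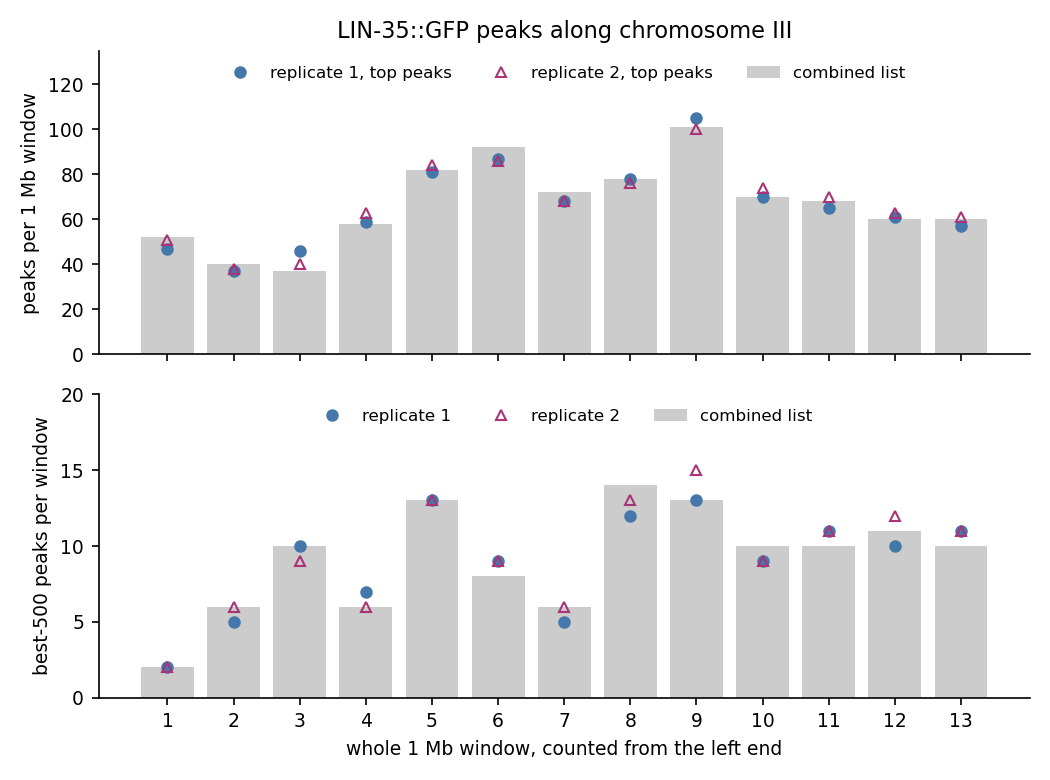
Sites per whole 1 Mb window of III, counted from its left end (x axis): all sites (upper panel) and sites among the best 500 of each list (lower panel), with bars for the combined list and points for the top peaks of the single replicates. The fullest window is the ninth with 101 sites; the first window has 52 sites but 2 of the best 500.

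Neighbouring sites on III lay closer together than on any other chromosome by the median, 8752.5 bp between midpoints, against 9736 bp on I, the next, and 14697 bp on X. The extent per site, 14850 bp on III, is the smallest too. Of 927 distances on III, 78 were 1 kb or less (8.41%, Wilson 95% interval 6.79 to 10.4%), against 6.98% over all nuclear chromosomes and 8.71% on IV. The top peaks of replicate 1 gave 6.40% and those of replicate 2 7.72%. Long distances were few: 49 were 50 kb or more (5.29%), against 10.7% on the other autosomes, and 3 were 100 kb or more, against 85 of 3197 there. Chromosome I was close to III, with 6.11% of distances at 50 kb or more. Of 137 windows of 100 kb on III 1 was empty, against 2 of 150 on I, 3 of 152 on II and 36 of 209 on V.

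Sites with a neighbour within 1 kb were seldom among the strongest. They numbered 144 on III, of which 7 were among the best 500 (4.86%, Wilson 95% interval 2.37 to 9.69%), against 118 of the other 784 (15.1%, 12.7 to 17.7%). Their median place was 2796, against 2088.5. On the other nuclear chromosomes the same shares were 6.61% and 10.1%, with median places of 2566.5 and 2436.5. These include X, with 0% and 1.32%. II was like III by these shares, with 4.21% (1.65 to 10.3%) against 13.5% (11.1 to 16.4%). On I, IV and V the shares ran from 6.85% to 9.16% with such a neighbour and from 11.4% to 11.8% without. The smallest distance, 161.5 bp, was between sites at 13275818 to 13275956 and 13275887 to 13276210, which overlap and took places 850 and 4248. Of the neighbours on III, 7 pairs overlapped. Whether sites this close are separate binding events or split calls of the peak caller was not tested.

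Denser stretches, of at least 4 sites with neighbouring midpoints no more than 2 kb apart, numbered 9 on III and held 38 sites (4.09% of those on III). Chromosome I had 7 such stretches with 33 sites (3.47%), II had 6 with 26 (3.45%) and X had 4 with 20 (3.01%). IV and V had 3 each, with 14 sites (1.74% and 2.02%). The longest stretch on III had 5 sites, as on IV, against 7 on I and 6 on each of II, V and X. Of the 9 on III, 4 were in the middle zone, at 7642036 to 7645413, 8124368 to 8127267, 8982101 to 8985779 and 9051217 to 9055017. The other 5 were in the right zone, at 10816026 to 10819906, 11935018 to 11938213, 12368307 to 12370181, 12612366 to 12617205 and 13061147 to 13066001. The left zone had 0. No stretch was made of strong sites. Of the 38 sites, 0 were among the best 500, and their median place was 2872, against 2121 for the other 890. The tightest stretch spanned 1875 bp from 12368307, with 4 sites at places 1083 to 2794, and was the best by its median place of 1606. Its partners had numbers of 857 to 2831 in replicate 1 and 1418 to 2688 in replicate 2. The best single site in a stretch, at place 535, opened the one at 13061147, where 3 of 5 sites had partners in both replicates. In the other 8 stretches every site had both.

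The longest distances between neighbours were on the outer zones. The longest, 132869 bp, ran from the site ending at 2172303 to that starting at 2304849. Replicate 1 had 26 peaks inside it and replicate 2 had 33, of which 3 and 0 were among their top 4794. The next 4 distances ran from 235514 to 343656 (108465 bp), from 12714071 to 12818290 (104542 bp), from 671361 to 764440 (93402 bp) and from 12058721 to 12146544 (88146 bp). They held 12 to 27 peaks of either replicate, of which at most 1 was among its top peaks. These stretches were therefore not empty of called peaks, and 3 of the 5 held top peaks of replicate 1. The best 500 sites had a median spacing of 78297 bp on III. Their longest interruption, 736361 bp from 5872041 to 6608135, lay in the dense middle zone and held 60 weaker sites. The closest of the best 500 on III were those starting at 7498406 and 7499479, 1018.5 bp apart, at places 28 and 314.

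Nearly all sites on III had a partner in both replicates. Partners, taken as peaks sharing at least 1 bp, were found in both for 890 of 928 (95.9%, Wilson 95% interval 94.4 to 97.0%), against 94.8% of all nuclear sites, so that III was near the background. The combined list and the replicate lists come from the same libraries, which makes such overlap partly built in. Of the remaining 38, 37 had a partner in replicate 2 only (3.99% of the sites on III), 1 had it in replicate 1 only and 0 had none. Over all nuclear chromosomes 243 of 4794 sites (5.07%) had a partner in replicate 2 only and 4 in replicate 1 only. The imbalance was thus a trait of the whole combined list. All 125 sites of III among the best 500 and all 112 in places 501 to 1000 had both. On the other nuclear chromosomes it was 375 of 375 and 387 of 388, so III was at the background there. In places 3001 to 4000 on III both were found for 155 of 162 (95.7%), where the other chromosomes together had 90.8%. From place 4001 on it was 118 of 145 (81.4%), against 83.1% on the others.

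The 37 sites without a peak in replicate 1 were among the weaker sites of III in the combined list and had larger numbers in replicate 2. Their median place was 4215, against 2177.5 for all sites on III. Their numbers in replicate 2 ran from 1228 to 4436 with a median of 3476, against a median of 2127 for all sites on III. They were spread over the zones, with 12 in the left, 12 in the middle and 13 in the right. The best of them, at 3323969 to 3324292, took place 1678 and had number 1228 in replicate 2. The next took place 1691, at 354788 to 354958, with 2 partners in replicate 2. A replicate 1 peak with number 1953 started 36 bp beyond its end. Places 2625, 2854 and 3003, at 8815693 to 8816016, 1681011 to 1681334 and 12447508 to 12447831, had numbers 2165, 2113 and 2498 in replicate 2. For 14 of the 37, the nearest replicate 1 peak was within 500 bp of the site's edge, and the farthest was 4857 bp away.

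Where a site had exactly 1 partner in either replicate, which held for 796 sites on III, the peak numbers of the replicates went together with a Spearman's rho of 0.84. On the other autosomes rho ran from 0.79 to 0.82, and on X it was 0.59. These are descriptions across sites that share their libraries and were selected for presence in both. The peak numbers in the 2 replicates differed by a median factor of 1.41 on III, and by 2 or more for 170 sites (21.4%), against 21.8% on the other nuclear chromosomes. A factor of 5 or more was found for 37 sites (4.65%), against 3.34% on the other nuclear chromosomes. In 36 of the 37 the larger number was that of replicate 1. Elsewhere it was 101 of 106. On III the combined peak numbers followed those of replicate 2 (rho = 0.98) more closely than those of replicate 1 (0.91). The same order held on each other chromosome, with 0.98 and 0.87 over the other nuclear chromosomes together.

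The largest disagreement was at 11371215 to 11371538, place 1487, with number 11921 in replicate 1 and 1067 in replicate 2. Next came 11129398 to 11129721, place 3415, with 25549 and 2834, and 4094607 to 4094930, place 2853, with 23247 and 2668. The site at 1430031 to 1430354, place 4574, went the other way, with 1186 and 10062. The fifth, at 535227 to 535550, place 3540, had 24363 and 2989. In 4 of these 5 the site was thus, by peak number, near the end of the replicate 1 list or well down it, and among the first 4794 of replicate 2.

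**Figure D4:**
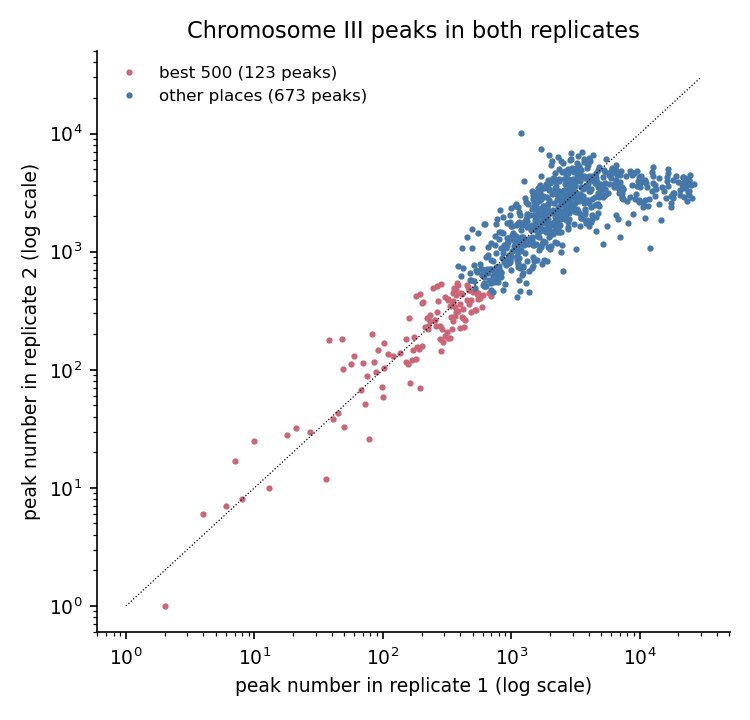
Peak number in replicate 1 (x axis, log scale) against that in replicate 2 (y axis, log scale) for the 796 sites on III with a single partner in either replicate; the dotted line marks equal numbers. Sites of the best 500 lie along the line, and most far points lie below it, with a larger number in replicate 1.

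The partners also agreed in position. Midpoints of the replicate 1 partner lay a median of 14.5 bp, and those of the replicate 2 partner 5 bp, from the midpoint of the site on III. The midpoints of both partners were 20.5 bp apart by the median, against 23 bp on the other nuclear chromosomes. The distance grew down the list, from 8.5 bp for sites of III among the best 500 to 52 bp from place 4001 on. Elsewhere these values were 7 and 53.5 bp. Some of the 928 sites overlapped more than 1 replicate peak, 42 of them in replicate 1 and 70 in replicate 2, with 11 in both. Among the 3866 sites on the other nuclear chromosomes these counts were 215, 341 and 60.

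The width of a site changed with its place. On III 612 sites had the common width of 324 bp, 313 were narrower (33.7%, against 27.9% of all nuclear sites) and 3 were wider. The 3 wider ones, at 364, 345 and 332 bp, took places 5, 10 and 2. Within the best 100 the median width on III was 291 bp, in places 251 to 500 it was 219 bp, and in places 1001 to 1500 it was 149 bp. From place 2001 on 7 of 496 sites were narrower than 324 bp. The other chromosomes followed the same course, with medians of 284, 223 and 162.5 bp in these 3 ranges of places. Strong sites thus mostly had widths of their own, and weak ones the common width. In sum of widths the sites covered 257 kb, or 1.87% of the extent of III, against 1.31% on the other autosomes.

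**Figure D5:**
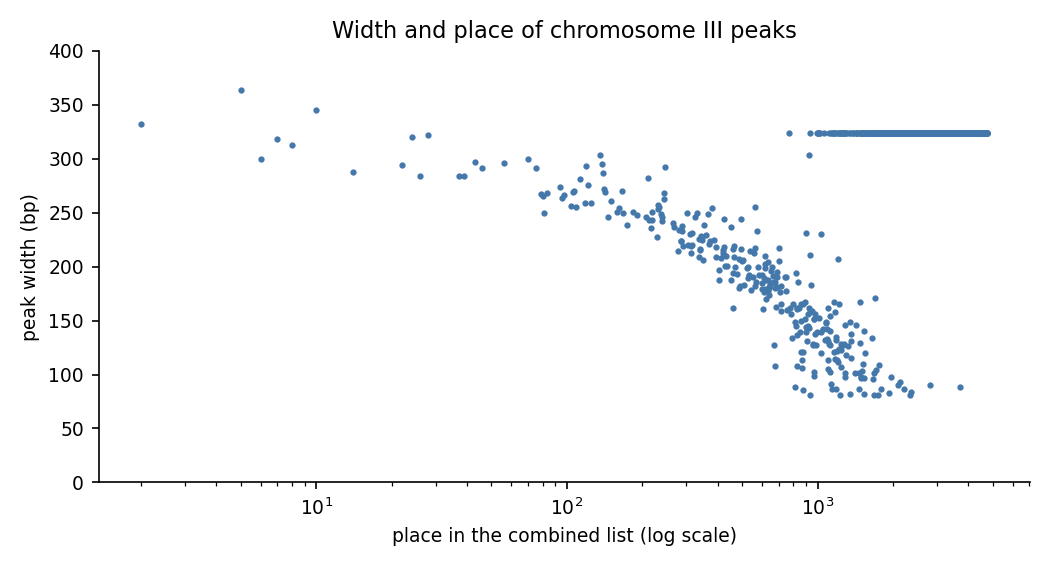
Width in bp (y axis) of each of the 928 sites on III against its place in the combined list (x axis, log scale). Widths fall from 364 bp at place 5 to a median of 149 bp in places 1001 to 1500, and the row of points at 324 bp is the common width of 612 sites.

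Seen from the single replicates, the strongest peaks on III were all in the combined list, as they were on the other chromosomes. Of the best 500 nuclear peaks of replicate 1, 123 were on III, and all 123 overlapped a combined site. The same held for 127 of 127 in replicate 2. Over all nuclear chromosomes the overlap was 500 of 500 in either replicate, so III did not differ. Among the top 4794 of replicate 1 it was 731 of 923 on III (79.2%), against 75.5% on the other autosomes, and in replicate 2 it was 874 of 934 (93.6%), against 92.9%. Further down, 1061 replicate 1 peaks on III (25.2%) overlapped a replicate 2 peak but no combined site, against 23.8% on the other autosomes. The strongest of these in replicate 1 had number 1710, at 6133352 to 6133651. Its partner in replicate 2, at 6133614 to 6133949, had number 7594, and the nearest combined site was 3738 bp away.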

How the data were processed

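The data are 3 peak lists, 1 for either ChIP replicate and 1 combined. Per the file headers, coordinates are those of WormBase WS220. The authors made the peaks with SPP and the irreproducible discovery rate, as the entry spp_via_IDR in the deposited files says. Not given in the sources used here are the aligner, versions, thresholds, use of the inputs and the rule behind the combined list. The authors deposited a score for each peak with no scale named, and 91.2% of combined peaks share its highest value, so scores only ordered peaks within a list. Read depth is unknown, and the inputs were not analysed here.

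Sites, zones and windows were assigned by peak midpoint on the 6 nuclear chromosomes, with the largest peak end of any list as a chromosome's extent. Computation used scipy 1.17.1, pandas 2.3.3 and numpy 2.4.6 under Python 3.11.15, and plots used matplotlib 3.10.9. Functions were tested on simulated lists. No test across sites was made, and Wilson 95% intervals cover counting error only. The choice of chromosome III and of all comparisons was made with earlier results of these data known. Sites named are the 15 best, the best of each window, dense stretches of at least 4 sites, the 5 longest distances, the 5 widest (3 above the common width, the rest tied), the 5 best lacking a replicate, the last 3 and the 5 with the largest factor between replicate numbers. The closest pairs, the strongest shared peak outside the combined list and the extremes among windows were picked after their values were seen. The gene table at hand is of WBcel235 and was not used, since builds were not mixed.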

Additional observations from a re-analysis of the deposited data

How the results depend on the processing

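Of 40 alternative values, 22 stayed within a limit set for each result, 18 moved further and 0 reversed. A reversal could be called only for the density ratio and the middle to outer ratio. The limit for most shares and ratios was the SD between the replicates. For partners in both replicates it was the Wilson interval, and for the fullest window a fixed factor. For rank agreement it was the SD over the 6 chromosomes. Where the replicates' SD was the limit, the same replicate values also counted as alternatives, so that their staying within it was partly built in. Counting a repeated position once could not change the middle to outer ratio, since III had 0 repeated positions. The count of 22 therefore does not measure how robust the results are. With a single replicate in place of the combined list, the share of sites on III was 19.3 to 19.5%, the density ratio to the other autosomes 1.42 to 1.46, the middle to outer ratio 1.31 to 1.39, the share of the best 500 24.6 to 25.4% and the share of distances within 1 kb 6.40 to 7.72%. In the first 2000 places the share was 21.6% and the ratios 1.53 and 1.50. Over all peaks the share was 15.8% in replicate 1 and 16.6% in replicate 2. The density ratio was 1.61 without chromosome I and 1.28 without V. The middle to outer ratio was 1.48 with the middle 50% as centre and 1.29 among the best 500. III held 23.7% of the best 1000. Both replicates had a partner for 89.4% of sites with 50% of the site covered, 88.9% with midpoints within 100 bp and 74.6% with top lists only. Rank agreement was 0.34 by scores, many of which tie at the ceiling. Of distances, 19.0% were within 2 kb, and 11.8% within 1 kb from edge to edge. The cause of these shifts was not tested, beyond wider or narrower definitions that change a count by construction. X was not in the density ratio and so was not left out in turn. No paired analysis was possible because the labels pair ChIP samples only with inputs, for which no peaks or values were used here. Depth is unknown, so weak peaks cannot be weighed by reads.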
